A study of Danio rerio with 4 samples.

Results

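The neural crest specifier genes are transcription factors that mark and set up the neural crest, and 10 of them were taken by symbol: foxd3, sox10, sox9b, snai1b, tfap2a, tfap2c, twist1a, twist1b, msx1b and dlx2a. Of these, 9 were found among the 24235 genes of the table, and foxd3 was not analysed here. Whole zebrafish embryos at the 6-somite stage were measured by RNA sequencing in 4 libraries of total RNA. 2 libraries came from Npas4l-KO embryos, which are homozygous for the bns297 allele of npas4l, and 2 from wild-type (WT) embryos of the AB strain. No other allele, transgene or treatment is named in the labels, both groups were raised in E3 medium, and the number of embryos, the clutches and the strain background of the mutants are not given. All p-values therefore rest on differences among these 4 libraries, part of which may be technical.

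The neural crest arises at the border between the neural plate and the epidermis, where Bmp, Wnt and Fgf signals turn on border factors such as the Msx, Pax3/7, Zic and AP-2 proteins. These in turn start the specifiers of the Foxd3, SoxE and Snail families, and the cells later leave the border and become pigment cells, peripheral neurons, glia and the skeleton of the face. npas4l encodes a bHLH-PAS factor of the lateral plate mesoderm without which most vessels and blood cells fail to form. The comparison asked here is whether the crest programme, which starts in the ectoderm at the same stage, differed in embryos that lack this factor.

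The deposited values are gene counts scaled per library and rounded, and are called normalised values below. They summed to between 7272902 and 8237748 per library, and the spacing of low values put 1 read at 0.898 to 1.09, so that a normalised value is close to a number of reads. Mutant replicate 2 stood apart, with 299 genes at 0, where the other 3 libraries had 2444 to 3000. The mutant phenotype was visible in 2 regulators of the affected lineage. tal1, a bHLH factor of blood progenitors, was at 13 and 8 in Npas4l-KO and at 166 and 163 in WT. etv2, an ETS factor of endothelial precursors, was at 127 and 86 in Npas4l-KO and at 294 and 244 in WT. Region markers of an embryo at this stage, such as tbxta of the notochord (483 and 439 in Npas4l-KO, 517 and 567 in WT) and egr2b of the hindbrain (263 and 191 in Npas4l-KO, 254 and 285 in WT), were present in every library, as was tbx16 of the tailbud mesoderm (735 and 652 in Npas4l-KO, 725 and 815 in WT). Of 9 such markers 8 had a row and 7 were tested, with 0 past the test described below and a median log2 fold change of -0.11. sox32, of endoderm precursors, was too low to be tested, at 2 and 11 in Npas4l-KO and 0 and 4 in WT; it lay outside the naming rule and was chosen after its values were seen.

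None of the 9 neural crest specifiers passed the test between Npas4l-KO and WT embryos. The test was limma on log2(value + 1) over the 16653 genes that averaged 10 or more, with Benjamini-Hochberg adjustment over all of them and a threshold of 0.05. Over all genes 0.0480% passed, and of the members 0 rose and 0 fell, with limma adjusted p-values of 1 throughout. At an unadjusted p under 0.05 there were also 0 members, against 3.75% of all genes, and limma-voom called 0. The lowest unadjusted limma p-value of a member was 0.122, for twist1a. Log2 fold changes ran from -0.44 to 0.47 with a median of -0.031, against a median of -0.018 over all genes tested. Over all genes that averaged 50 or more, as 7 of the members did, the median was -0.054. Of the members, 5 were below 0 and 4 above. Among the 5 was sox9b, but it was above 0 with upper-quartile scaling, quantile normalization, totals without mitochondrial genes and limma-voom. Without mutant replicate 2 the median of the members was 0.022. In bulk RNA from whole embryos, fewer crest cells and less RNA per cell cannot be told apart.

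**Figure D1:**
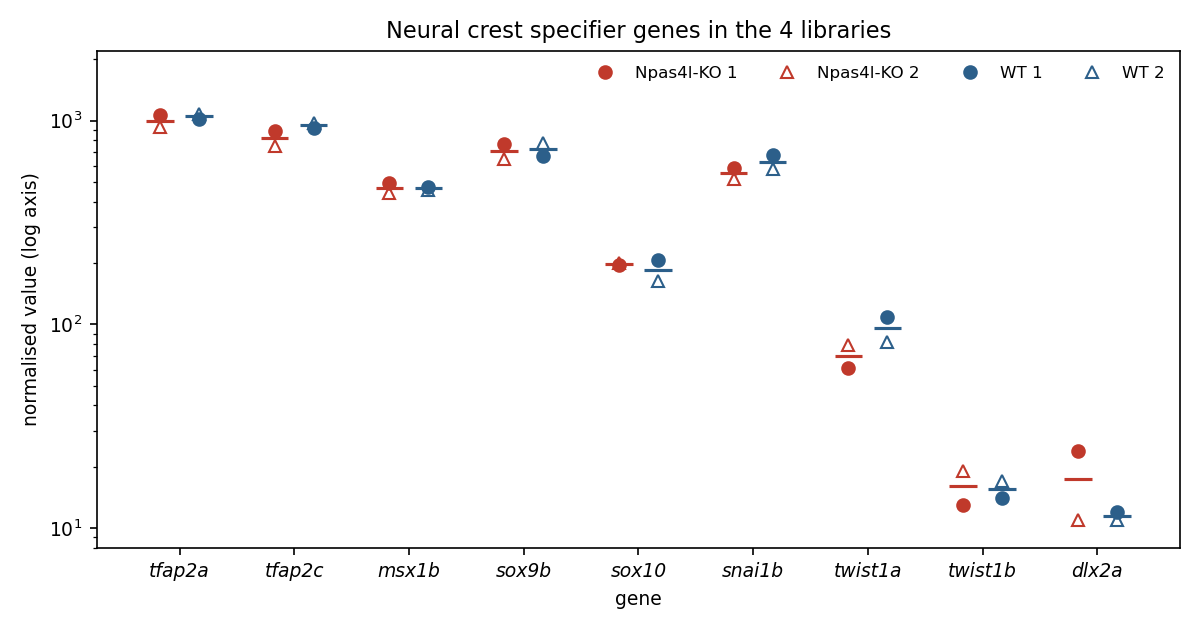
Normalised value (log axis) of the 9 neural crest specifier genes in each library, with Npas4l-KO libraries left of WT libraries for each gene and a bar at each group mean. Values run from 11 for dlx2a to 1082 for tfap2a, and in the values as deposited the groups separate only for tfap2c and twist1a.

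The members that act earliest, at the neural plate border, are the AP-2 factors and msx1b. tfap2a encodes AP-2 alpha, which in zebrafish is needed for much of the crest and is also made in the epidermis (ENSDARG00000059279, GRCz10 chromosome 24, 8581299 to 8592141, minus strand). It had normalised values of 1064 and 929 in Npas4l-KO and 1015 and 1082 in WT. The mutant libraries enclosed 1 of the WT libraries, so the groups overlapped. The log2 fold change was -0.076 ± 0.14 (SE), with a 95% interval of -0.35 to 0.20.

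tfap2c encodes AP-2 gamma, which acts together with AP-2 alpha in crest induction (ENSDARG00000040606, chromosome 6, 56157660 to 56195515, plus strand). It stood at 888 and 747 in Npas4l-KO and at 922 and 970 in WT. Both mutant libraries were below both WT libraries, and mutant replicate 2 was the lowest. The group means were 818 ± 99.7 in Npas4l-KO and 946 ± 33.9 in WT (SD, n = 2 each), a log2 fold change of -0.22 ± 0.14 with a 95% interval of -0.50 to 0.068. The gap between the mutant libraries, 0.25 on the log2 scale, was larger than the difference between the groups.

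msx1b encodes a Msh-type homeodomain factor of the border and the dorsal neural tube (ENSDARG00000008886, chromosome 1, 48708480 to 48710893, plus strand). Its values were 492 and 442 in Npas4l-KO and 474 and 455 in WT, so the WT libraries lay between the mutant libraries. Group means were 467 ± 35.4 in Npas4l-KO and 464.5 ± 13.4 in WT (SD, n = 2 each), and the log2 fold change was 0.0060 ± 0.16 with a 95% interval of -0.30 to 0.31.

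The members that mark specified crest cells are the SoxE genes and snai1b. sox9b encodes an HMG-box factor of the crest that forms cartilage, also made in the otic placode (ENSDARG00000043923, chromosome 3, 62341796 to 62348451, minus strand). It was at 766 and 650 in Npas4l-KO and at 670 and 776 in WT. The ranges nearly coincided, and the log2 fold change was -0.031 ± 0.15 with a 95% interval of -0.32 to 0.26. FO834815.1, a gene on the plus strand that overlaps sox9b, had values of 1 and 16 in Npas4l-KO and 1 and 1 in WT, and whether reads were counted by strand is not stated in the sources used here.

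sox10 encodes the SoxE factor of pigment cells, peripheral neurons and glia (ENSDARG00000077467, chromosome 3, 2013057 to 2022138, plus strand). It stood at 195 and 200 in Npas4l-KO and at 207 and 163 in WT. The mutant libraries lay between the WT libraries. The log2 fold change was 0.10 ± 0.20, with a 95% interval of -0.29 to 0.50.

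snai1b encodes a Snail zinc-finger repressor of cell adhesion genes, made in crest and in mesoderm (ENSDARG00000046019, chromosome 23, 2563981 to 2574199, minus strand). Its values were 585 and 519 in Npas4l-KO and 677 and 577 in WT. The higher mutant library was just above the lower WT library, so the groups overlapped by a small margin. Group means were 552 ± 46.7 in Npas4l-KO and 627 ± 70.7 in WT (SD, n = 2 each), with a log2 fold change of -0.18 ± 0.15 and a 95% interval of -0.48 to 0.12.

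The members linked to the cranial crest that forms skeleton and connective tissue are twist1a, twist1b and dlx2a. twist1a encodes a bHLH factor of crest and mesodermal mesenchyme (ENSDARG00000030402, chromosome 19, 2397417 to 2399443, minus strand). It was at 61 and 79 in Npas4l-KO and at 109 and 82 in WT. Both mutant libraries were below both WT libraries, by a margin of a few reads between mutant replicate 2 and WT replicate 2, and the groups overlapped once the values were scaled to their upper quartile or to totals without mitochondrial genes. The group means were 70 ± 12.7 in Npas4l-KO and 95.5 ± 19.1 in WT (SD, n = 2 each). The log2 fold change was -0.44 ± 0.28, with a 95% interval of -1.0 to 0.12.

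twist1b, the paralogue of twist1a, had low values (ENSDARG00000076010, chromosome 16, 19926724 to 19928330, plus strand). The RefSeq gene table lists each of these names as a synonym of the other gene, and the deposited table's symbols and IDs are used here. They were 13 and 19 in Npas4l-KO and 14 and 17 in WT, with the WT libraries between the mutant libraries. The log2 fold change was 0.026 ± 0.78 with a 95% interval of -1.52 to 1.57. Over genes whose mean value was within 1.5 times that of twist1b, the median log2 fold change was 0.33. dlx2a, a homeobox gene of the crest of the pharyngeal arches, was at 24 and 11 in Npas4l-KO and at 12 and 11 in WT (ENSDARG00000079964, chromosome 9, 3425076 to 3429191, minus strand). 1 mutant library was above the other 3, which stood at 11 or 12, and the log2 fold change was 0.47 ± 0.86 with a 95% interval of -1.23 to 2.18. Genes within 1.5 times the mean value of dlx2a had a median of 0.36.

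**Figure D2:**
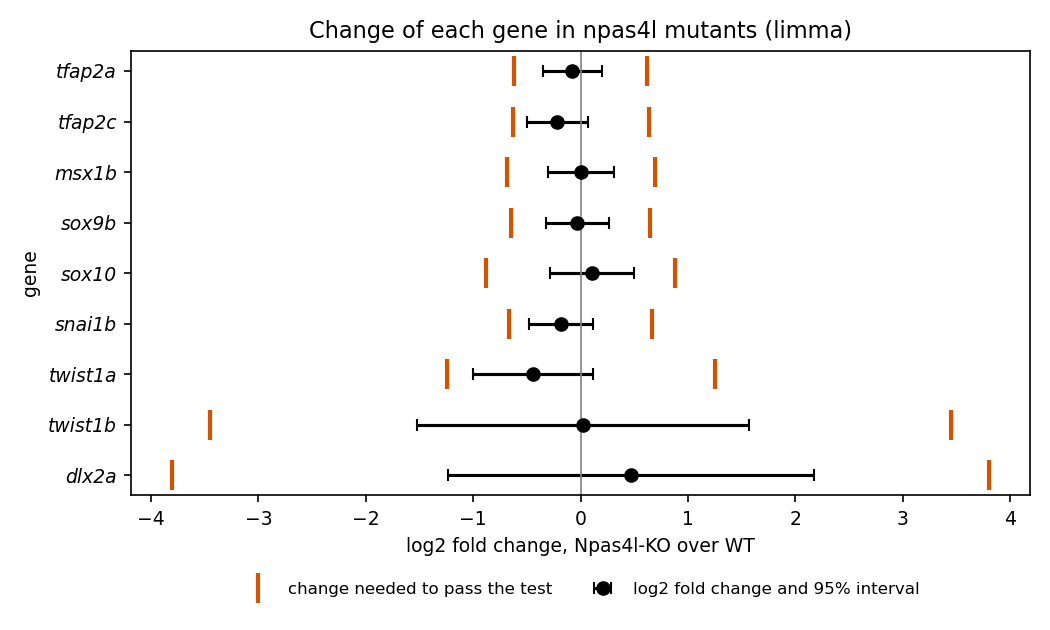
Log2 fold change of each gene in Npas4l-KO over WT (points) with the 95% interval from limma (bars), and the change on either side that a gene with the same standard error would have needed to pass the test (orange ticks). All 9 intervals include 0, and those of twist1b and dlx2a are the widest.

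The observed change that would have passed the test differed between the members. A true change of that size could still have missed the threshold. At their standard errors, tfap2a, tfap2c, sox9b, snai1b and msx1b would have passed with a fold change of 1.54, 1.55, 1.57, 1.59 and 1.61 in either direction, and sox10 with 1.84. twist1a would have needed a fold change of 2.38, and twist1b and dlx2a 10.9 and 13.95. The 95% intervals ran from 0.708 to 1.05 of the WT level for tfap2c and from 0.811 to 1.24 of it for msx1b. Those of twist1b (0.349 to 2.97) and dlx2a (0.426 to 4.52) were so wide that little can be said of either at this depth. These standard errors come mostly from a variance trend shared by genes of like value (83.6 prior degrees of freedom), and not from each gene's own 2 pairs of libraries.

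Differences between replicates were set beside those between the groups. In 8 of the 9 members the group difference on the log2 scale was smaller than the larger of the 2 replicate gaps. In 1, twist1a, it was slightly larger (0.44 against 0.41). A difference between means of 2 libraries varies less than a gap between single libraries, so such counts can be high without any change. The share over all genes is not given here. Both mutant libraries lay beyond both WT libraries in 2 members, tfap2c and twist1a, which is 22.2% of the members, while the same held for 29.4% of all genes tested. Both were lower in Npas4l-KO, a pattern found in 16.1% of all genes. It held for 2151 of the 10576 genes that averaged 50 or more, as both members did.

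**Figure D3:**
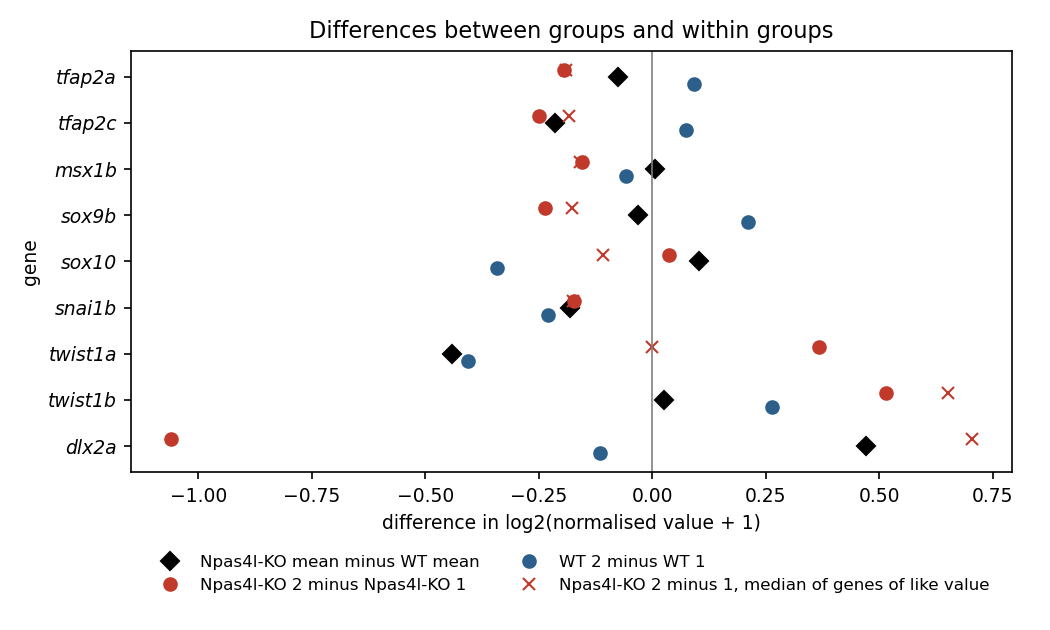
Differences in log2(normalised value + 1) for each gene, as the Npas4l-KO mean minus the WT mean (black), Npas4l-KO 2 minus Npas4l-KO 1 (red points) and WT 2 minus WT 1 (blue). Red crosses give the median of Npas4l-KO 2 minus Npas4l-KO 1 over genes whose mean value was within 1.5 times that of the gene. In 8 of 9 genes a replicate gap exceeds the group difference, and the share over all genes is not given.

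Mutant replicate 2 was lower than mutant replicate 1 in 6 of the 9 members and was the lowest of the 4 libraries in 5. These 5 all belong to the 7 members that averaged 50 or more. Among all genes that averaged 50 or more it was the lowest in 47.0%. Over those genes the median log2 gap of mutant replicate 2 to mutant replicate 1 was -0.13. For tfap2c the gap of mutant replicate 2 to mutant replicate 1 was -0.25, and the median gap over the 1256 genes of like value was -0.18. For snai1b the gap was -0.17, and the median over genes of like value was also -0.17. For twist1b it was 0.51 and the median over genes of like value 0.65. Low values were thus generally raised in this library against mutant replicate 1, and the cause was not tested. dlx2a went the other way, with a gap of -1.06 against a median of 0.70. Without mutant replicate 2 the log2 fold change of tfap2c was -0.091 and that of snai1b -0.095, while that of twist1a was -0.62.

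The members summed to 4088 and 3596 in Npas4l-KO and to 4100 and 4133 in WT. As a share of each library's total they made up 0.0496% and 0.0494% in Npas4l-KO, against 0.0513% and 0.0510% in WT. The lower sum in mutant replicate 2 thus came with a lower total, and the shares of the 2 mutant libraries were close to each other. The shares did not overlap between the groups, and no test was made of a sum over chosen genes. For single genes, 29.4% of all those tested did not overlap. Genes that averaged 50 or more had a median log2 fold change of -0.054, but on the deposited values, whose library totals differ. That median is therefore not on the scale of the shares. Whether a slightly lower share is particular to the members was not tested.

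Ratios within a library do not depend on its scaling, and 3 were computed between related members, chosen after the values were seen. The ratio of tfap2a to tfap2c was 1.20 and 1.24 in Npas4l-KO and 1.101 and 1.115 in WT. Both mutant libraries were above both WT libraries, a log2 difference of 0.14, at the smallest two-sided exact permutation p that 2 against 2 libraries allow (0.333, Benjamini-Hochberg adjusted 0.5). The ratio of twist1b to twist1a was 0.213 and 0.241 in Npas4l-KO and 0.128 and 0.207 in WT, also without overlap (exact permutation p = 0.333, adjusted 0.5). The margin, 0.213 against 0.207, rests on twist1b values of 13 and 17. Genes of like value to twist1b had a median gap of mutant replicate 2 to mutant replicate 1 of 0.65, and those of like value to twist1a 0. Such a difference by level does not cancel in a ratio, and its part here was not tested. For sox10 to sox9b the ratio was 0.255 and 0.308 in Npas4l-KO and 0.309 and 0.210 in WT, and the groups overlapped (exact permutation p = 1, adjusted 1).

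The other genes of the crest programme were read from 4 lists in the same fit. Over all genes tested, 3.75% had an unadjusted limma p under 0.05, the share to set beside the count of each list below. Of the 12 neural plate border factors, all tested, 0 rose and 0 fell, by limma and by limma-voom, and 0 had an unadjusted p under 0.05. Their median log2 fold change was -0.14, with 3 above 0 and 9 below. The median was -0.018 over all genes tested and -0.054 over those that averaged 50 or more. In 6 of 12 (50%, against 29.4% of all genes) the groups did not overlap. All 6 were lower in Npas4l-KO, a pattern found in 16.1% of all genes. Among the 10576 genes that averaged 50 or more, 2151 showed it. This count was made on the values as deposited only, and not repeated with other scalings. The smallest p-values belonged to pax7b, gbx2 and dlx5a. pax7b, a paired-box factor of border and pigment cell precursors, was at 82 and 78 in Npas4l-KO and at 113 and 111 in WT (log2 fold change -0.48 ± 0.26, limma adjusted p = 1). gbx2, a homeobox factor of the border and the anterior hindbrain, was at 131 and 120 in Npas4l-KO and at 157 and 171 in WT. dlx5a, a homeobox gene of the border and the placodes, was at 29 and 36 in Npas4l-KO and at 58 and 47 in WT.

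Of 17 paralogues of the members, 16 had a row and 11 were tested, with 0 past the test in either direction by limma or limma-voom and a median of -0.074. At an unadjusted p under 0.05 there was 1, sox8b, the third kind of SoxE gene, at 20 and 47 in Npas4l-KO and at 12 and 6 in WT (log2 fold change 1.73 ± 0.76, limma adjusted p = 1). twist2, a Twist gene of mesenchyme, was at 64 and 32 in Npas4l-KO and at 29 and 23 in WT. snai1a, the paralogue of snai1b, was at 416 and 363 in Npas4l-KO and at 335 and 339 in WT, with both mutant libraries above both WT libraries (log2 fold change 0.20 ± 0.16). The groups did not overlap in 5 of the 11 (45.5%, against 29.4% of all genes), 4 higher and 1 lower in Npas4l-KO. Over all 16653 genes tested, 2208 were higher and 2684 lower in this way.

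Among 21 other factors and migration genes of the crest, 19 had a row and 18 were tested. Again 0 passed in either direction by limma or limma-voom, with a median of -0.075. The groups did not overlap in 6 of the 18 (33.3%, against 29.4% of all genes). sox5, a SoxD factor that modulates SoxE activity, was the 1 gene with an unadjusted p under 0.05. It stood at 662 and 699 in Npas4l-KO and at 841 and 893 in WT (log2 fold change -0.35 ± 0.14, limma adjusted p = 1), and mutant replicate 2 was not the lower of the mutant libraries. id2a, an inhibitor of bHLH factors, was at 108 and 128 in Npas4l-KO and at 78 and 98 in WT. erbb3a, a neuregulin receptor gene, was at 254 and 213 in Npas4l-KO and at 267 and 278 in WT. The pan-crest RNA crestin was at 1 and 13 in Npas4l-KO and at 11 and 13 in WT, too low to be tested; it lay outside the naming rule and was chosen after its values were seen.

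Genes of crest derivatives were mostly at low values at this stage. Of 17, 15 had a row and 6 reached the minimum mean value for the test, and 0 passed in either direction by limma or limma-voom, with a median of 0.19. These 6 averaged 15 to 38.5. Genes of like value to twist1b and dlx2a had median log2 fold changes of 0.33 and 0.36, so low genes were generally higher in Npas4l-KO. In 1 of the 6 (16.7%, against 29.4% of all genes) the groups did not overlap. The 2 of 6 with an unadjusted limma p under 0.05, against 3.75% of all genes, were ret and kita. ret, a receptor of enteric neuron precursors that is also made in the pronephros, was at 27 and 71 in Npas4l-KO and at 21 and 18 in WT. kita, a receptor of melanocyte precursors, was at 36 and 63 in Npas4l-KO and at 12 and 43 in WT, so its groups overlapped. phox2a, a homeobox factor of autonomic neurons, was at 15 and 21 in Npas4l-KO and at 19 and 30 in WT. In ret, kita and sox8b, mutant replicate 2, the library with raised low values, was the highest of the 4, and its part in these differences was not tested.

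**Figure D4:**
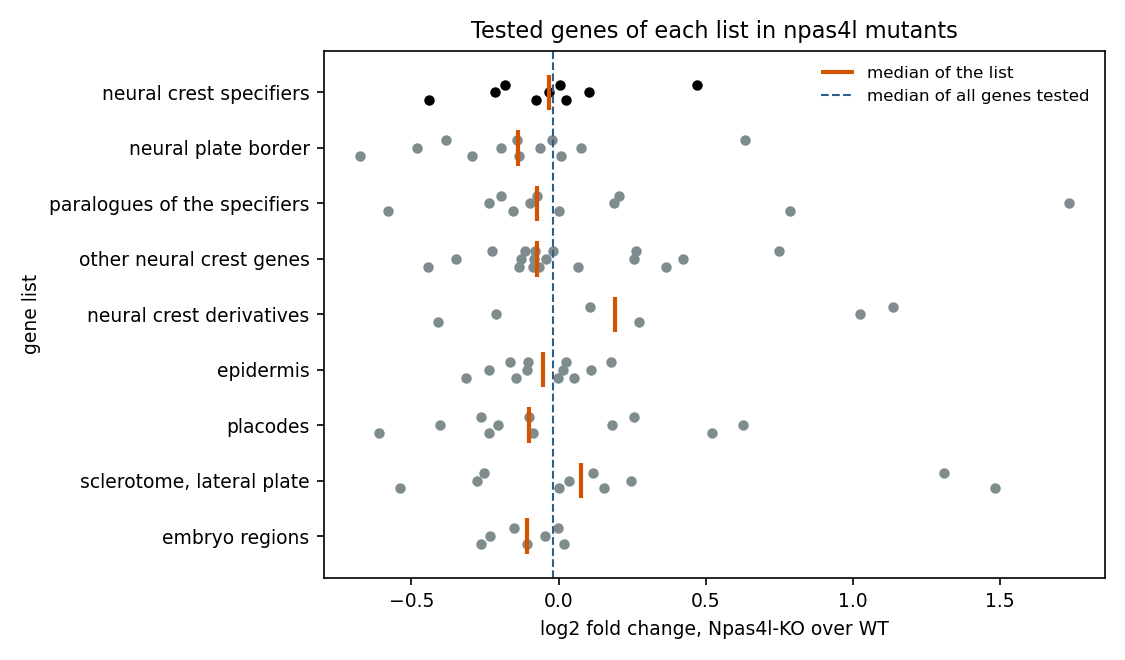
Log2 fold change in Npas4l-KO over WT of each tested gene in the 9 lists (points; neural crest specifiers in black), with the median of each list (orange) and of all genes tested (dashed line, -0.018). List medians run from -0.14 for neural plate border factors to 0.19 for crest derivatives. The tested derivatives had low values, and genes of like value to twist1b had a median of 0.33.

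Several members are also made outside the crest, so 3 lists of those tissues were read beside them. The 12 tested genes of epidermis and other non-neural ectoderm, which share tfap2a and tfap2c, had 0 past the test by limma or limma-voom and a median of -0.051. Their summed value was 81773 and 68186 in Npas4l-KO and 79294 and 80112 in WT. It was lowest in mutant replicate 2, the library with the lowest total over all genes. The median log2 gap of mutant replicate 2 to mutant replicate 1 was -0.28 over this list. Over all genes that averaged 50 or more it was -0.13. This gap differed by level, at -0.11 over genes of like value to sox10 and -0.19 over those of like value to tfap2a. The list was not set beside genes of its own level, and the cause was not tested. gata2a, a GATA factor of ventral ectoderm and of blood and vessel precursors, was at 425 and 401 in Npas4l-KO and at 504 and 524 in WT (log2 fold change -0.32 ± 0.16, limma adjusted p = 1), and was the 1 gene of the list with an unadjusted p under 0.05. The keratin gene cyt1 was at 727 and 513 in Npas4l-KO and at 694 and 746 in WT, and cyt1l was at 3518 and 2914 in Npas4l-KO and at 3614 and 3562 in WT. In 2 of the 12 (16.7%, against 29.4% of all genes) the groups did not overlap, both lower in Npas4l-KO.

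Of 11 placode genes, all tested, 0 passed by limma or limma-voom (median -0.10, summed values 2185 and 2104 in Npas4l-KO and 2285 and 2156 in WT). six4a and six1b, homeobox genes of the sine oculis family, differed in opposite directions at an unadjusted p under 0.05. six4a was at 78 and 91 in Npas4l-KO and at 145 and 115 in WT, and six1b at 135 and 92 in Npas4l-KO and at 69 and 75 in WT (log2 fold changes -0.61 ± 0.25 and 0.62 ± 0.27, limma adjusted p = 1 for both). dlx3b, a homeobox gene of the otic placode, was at 556 and 467 in Npas4l-KO and at 563 and 640 in WT. In 5 of the 11 (45.5%, against 29.4% of all genes) the groups did not overlap, 2 higher and 3 lower in Npas4l-KO.

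Of 14 genes of sclerotome and lateral plate mesoderm, which share Twist and Snail genes with the crest, 10 were tested and 0 passed by limma or limma-voom (median 0.076, summed values 1687 and 1485 in Npas4l-KO and 1590 and 1576 in WT). gata5, a GATA factor of cardiac mesoderm and endoderm, was at 323 and 289 in Npas4l-KO and at 362 and 379 in WT. hand2, a bHLH factor of the lateral plate, was at 123 and 94 in Npas4l-KO and at 121 and 136 in WT. pax9, of the sclerotome, was at 14 and 25 in Npas4l-KO and at 9 and 4 in WT. In 4 of the 10 tested (40%, against 29.4% of all genes) the groups did not overlap, 3 higher and 1 lower in Npas4l-KO. Whether crest, epidermal or mesodermal cells carried the values of tfap2c and twist1a was not tested in these whole embryos.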

How the data were processed

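Per the labels' protocols, a stranded total RNA kit was used on 10 ng of RNA per library, and reads were single, of 75 bases. Per the submitters' processing notes, the tools included STAR 2.4.0a and featureCounts 1.4.5-p1, with the builds danRer10 and GRCz10; the settings are not stated. The unit of the deposited table is a score: the authors scaled the gene counts by 1 factor per library and rounded them, as the regular gaps and doublings among low values show. They are not raw counts, so limma-trend was used in place of a count model.

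Genes averaging 10 or more entered the test on log2(value + 1), in which limma 3.58.1 (R 4.3.3) compared Npas4l-KO with WT and no other term. Fold changes on this scale understate changes of low genes. The code was tested on simulated data. The members and lists were chosen with earlier results of these data known, so no list was tested as a set. Named from each other list are the 3 tested genes with the smallest p-values. List genes were matched by the table's symbol or, failing that, by the symbol now given to the ID. Coordinates are those of the deposited table. 13 alternatives were run, including leaving out each library. Deviations of libraries with the same replicate number correlated at 0.009 over 16653 genes. Figures were drawn with Matplotlib 3.10.9.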

Additional observations from a re-analysis of the deposited data

How the results depend on the processing

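In none of the 13 alternatives did a member pass the test (0 in each; lowest adjusted p 0.144, for tfap2c without mutant replicate 1), and their median log2 fold change ran from -0.15 to 0.030. tfap2c, snai1b and twist1a stayed below 0 in all 13, while 6 members changed sign in some, all near 0 or at low values. With upper-quartile scaling, quantile normalization, totals without mitochondrial genes and limma-voom, sox9b was at 0.020, 0.040, 0.027 and 0.030; with quantile normalization twist1b was at -0.32 and dlx2a at -0.092. Leaving out 1 library at a time, log2 fold changes ran from -0.15 to 0.087 for sox9b, -0.17 to 0.022 for tfap2a, -0.068 to 0.28 for sox10, -0.071 to 0.083 for msx1b, -0.23 to 0.28 for twist1b and -0.058 to 1.001 for dlx2a. Members whose groups did not overlap numbered 4 with each of the 3 scalings (31.5% to 31.7% of all genes). With upper-quartile scaling and with totals without mitochondrial genes, tfap2c and snai1b were lower in Npas4l-KO and msx1b and dlx2a higher. With quantile normalization, tfap2c, twist1a and twist1b were lower and msx1b higher. With 1 library left out there were 4 to 7, where 57.6% to 71.6% of all genes did not overlap. Over all genes, 14 passed with upper-quartile scaling and 16 with totals without mitochondrial genes, against 8; with 1 library left out, and genes with a tied pair not tested, 6 to 274 passed; each such fit leaves a group with 1 library, which is assumed to vary like the other pair, so these calls rest on gaps within 1 pair of libraries, pooled over genes. The 274, of which 248 were lower, came without mutant replicate 1, and 22 passed without mutant replicate 2. Without mutant replicate 1, 5 epidermal genes (krt4, krt5, krt8, cyt1 and cyt1l; range 0 to 5) and 1 of the other crest genes (chd7; range 0 to 1) were called lower; the cause was not tested. The replicate block called 9 genes and 0 members and changed no call among the members; the replicate numbers are not shown to pair the libraries.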
